A study of Mus musculus with 6 samples.

Results

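The genes described here encode the enzymes and carriers that bring fatty acids to oxidation in mitochondria and peroxisomes, together with the uncoupling proteins that are linked to them. They were chosen by symbol from a list of 43 genes, of which 42 have a row among the 18181 genes of the deposited table; the other, Ucp1, was not analysed here. Of the 42, 40 averaged 1 FPKM or more over the 6 libraries and were tested, while Eci3 and Acaa1b lay near 0 in every library (highest values 0.10 and 0.11 FPKM). FPKM are fragment numbers scaled for transcript length and library size, so levels can be compared between genes. The samples were heart ventricle of C57BL6 mice, an inbred strain, at 24 to 26 months (aged, 3 libraries) and at 6 to 8 weeks (young, 3 libraries). No treatment or mutation is stated for either age. The labels speak of separate samples without tying each to an animal. The p-values therefore reflect how far these samples vary, which may be technical.

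Long-chain fatty acids are the main fuel of the adult heart. They are first joined to coenzyme A by acyl-CoA synthetases, handed to carnitine by CPT1 at the outer mitochondrial membrane, and turned back into acyl-CoA by CPT2 inside. Each turn of the beta-oxidation spiral then uses an acyl-CoA dehydrogenase, a hydratase, a hydroxyacyl-CoA dehydrogenase and a thiolase. Auxiliary isomerases and reductases handle unsaturated chains, and the electron transfer flavoprotein carries the electrons of the first step to the respiratory chain. Malonyl-CoA inhibits CPT1, and peroxisomes shorten chains that mitochondria handle poorly.

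The tissue label held against its markers: all 15 cardiomyocyte genes of a marker list were tested, and their summed level was 76729 to 81545 FPKM in aged and 65375 to 69789 FPKM in young libraries. Of a list of adipocyte genes, Adipoq, Plin1 and Cidec were at no more than 0.12 FPKM in any library, but others were abundant. The list summed to 2618 to 3242 FPKM in aged and 2497 to 2988 FPKM in young libraries. Most of it was Cox8b (means of 2033 FPKM in aged and 1608 in young) and Fabp4 (785 and 1061). Keratins and other stratified epithelial genes summed to 319.65 and 512 FPKM over 14 genes in aged replicates 1 and 2, against 2.93 FPKM in aged replicate 3 and 0.66 to 0.75 FPKM in young libraries. Low values multiplied by transcript length clustered at one step and again at 1.94 to 1.99 times that step, as whole fragments would. The step places the depth at about 9580000, 8570000 and 7510000 fragments in aged replicates 1, 2 and 3, against 8680000 to 9880000 in young libraries. These depths are approximate, because they rest on GENCODE lengths and not on those the authors used. At that depth the shallowest value of Acsl3 rested on about 58 fragments (a counting error of about 13%), and that of Hadha on about 20170 fragments (about 0.70%); these errors cover counting only.

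The promoters of 4 genes are shown because of what their genes did. Hadha and Hadhb, the alpha and beta subunits of the trifunctional protein, lie head to head on chromosome 5 and were both higher in aged ventricle. Their RefSeq start sites, at 30154980 on the minus strand and 30155253 on the plus strand of GRCm38.p6, have 272 bases between them. The promoter windows of this pair, 250 bases before to 50 bases after each start site, share 228 bases, so the window of Hadhb also holds most of the upstream sequence of Hadha. Ech1 and Acad11 had the largest differences among the genes that were higher, and Ucp2 the largest among those that were lower. Capitals mark the first 50 bases from the start site that the RefSeq promoter table uses, which for Ucp2, at 100493358, lies 21 bases inside the RefSeq gene start of 100493337.
Hadhb (chr5:30155003-30155302, plus strand): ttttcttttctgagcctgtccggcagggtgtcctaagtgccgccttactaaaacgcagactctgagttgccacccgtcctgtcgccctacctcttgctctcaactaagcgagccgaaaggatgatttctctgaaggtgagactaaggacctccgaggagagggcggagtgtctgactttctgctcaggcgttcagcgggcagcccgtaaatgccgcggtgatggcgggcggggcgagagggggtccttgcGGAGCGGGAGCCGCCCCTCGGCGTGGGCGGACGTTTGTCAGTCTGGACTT
Ech1 (chr7:28825088-28825387, plus strand): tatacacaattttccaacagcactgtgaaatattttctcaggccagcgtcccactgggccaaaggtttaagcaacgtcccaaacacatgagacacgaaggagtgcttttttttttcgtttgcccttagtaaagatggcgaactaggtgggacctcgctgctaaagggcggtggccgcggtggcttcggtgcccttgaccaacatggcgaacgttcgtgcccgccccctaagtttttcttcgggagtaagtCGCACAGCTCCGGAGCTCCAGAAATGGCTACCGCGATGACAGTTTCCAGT
Acad11 (chr9:104063474-104063773, plus strand): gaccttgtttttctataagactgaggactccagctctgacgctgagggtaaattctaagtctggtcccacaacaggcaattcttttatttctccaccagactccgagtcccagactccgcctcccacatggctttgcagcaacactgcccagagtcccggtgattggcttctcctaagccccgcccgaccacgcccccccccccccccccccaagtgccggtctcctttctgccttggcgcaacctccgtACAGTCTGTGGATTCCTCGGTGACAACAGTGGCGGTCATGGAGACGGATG
Ucp2 (chr7:100493108-100493407, plus strand): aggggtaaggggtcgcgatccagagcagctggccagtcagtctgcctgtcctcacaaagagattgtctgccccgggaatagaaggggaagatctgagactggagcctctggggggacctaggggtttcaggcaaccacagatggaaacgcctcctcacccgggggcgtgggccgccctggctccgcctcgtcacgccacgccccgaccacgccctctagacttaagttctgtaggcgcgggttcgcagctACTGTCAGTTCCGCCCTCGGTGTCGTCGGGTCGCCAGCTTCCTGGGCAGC
RefSeq promoter windows were on hand for 35 of the 42 genes, and not for Acaa2, Acad9, Acot13, Cpt1b, Crat, Decr1 and Hsd17b4. The 35 windows had a median of 60.7% G and C and 17 CpG dinucleotides, against 52.7% and 7 over 27025 genes. The window of Hadhb held 24 CpG, that of Ucp2 21, that of Ech1 19 and that of Acad11 13.

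Motif searches of these windows, on both strands and for exact letters, found few matches. A pair of AGGNCA copies in the same orientation, spaced by 1 free base, is a form of the repeat that PPAR factors bind, and was in 0 of 35 windows and in 0.451% of all genes. The motif TCAAGGTCA, bound by oestrogen-related receptors, was in 0 of 35 and in 0.466% of all genes, and the E-box CACGTG in 0 of 35 and in 8.09%. A palindrome of GCGCA followed directly by TGCGC, bound by NRF1, a factor of nuclear genes for mitochondria, was in 2 of 35 windows, those of Etfdh and Acad10, and in 1.07% of all genes. The last letters of TCAAGGTCA also match a single AGGNCA copy. The Etfdh window is shown for its match, in capitals, which begins 128 bases before the start site.
Etfdh (chr3:79628718-79629017, minus strand): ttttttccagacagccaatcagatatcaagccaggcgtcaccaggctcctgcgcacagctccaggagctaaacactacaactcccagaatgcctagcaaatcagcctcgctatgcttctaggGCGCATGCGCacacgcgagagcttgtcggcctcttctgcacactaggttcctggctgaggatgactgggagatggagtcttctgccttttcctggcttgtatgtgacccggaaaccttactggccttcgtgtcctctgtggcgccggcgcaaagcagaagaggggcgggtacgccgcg
The shares over all genes were not matched for content of G and C. These are letter matches in windows of 300 bases and say nothing of factor binding there or elsewhere.

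The comparison asked how transcripts of the oxidation machinery differ between old and young adult ventricle. In aged ventricle 17 of the 40 rose and 2 fell (limma on log2(FPKM + 1), Benjamini-Hochberg adjusted p under 0.05 over 11860 genes), where 9.32% of all tested genes were higher and 17.1% lower. The genes that rose were enzymes of the mitochondrial spiral (8 of 12), both genes of malonyl-CoA control, 2 of 4 auxiliary enzymes, 2 of 3 electron transfer genes, 1 of 4 genes of the carnitine shuttle, 1 of 3 thioesterases and 1 of 6 peroxisomal genes. In these roles Acad9, Acad10 and Acad11 are counted in the spiral, and the data do not locate their proteins. The genes that fell were Ucp2 and Acsl5. In 24 of the 40 the aged libraries all lay above the young ones, against 15.2% of all tested genes, in 3 they all lay below (27.9% of all), and in 13 the ages overlapped. The median log2 difference was 0.18 over the 40 genes and -0.06 over all tested genes. These counts over the set are descriptions, with no test of the set. In whole tissue, fewer cells of a type and less RNA per cell cannot be told apart.

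**Figure D1:**
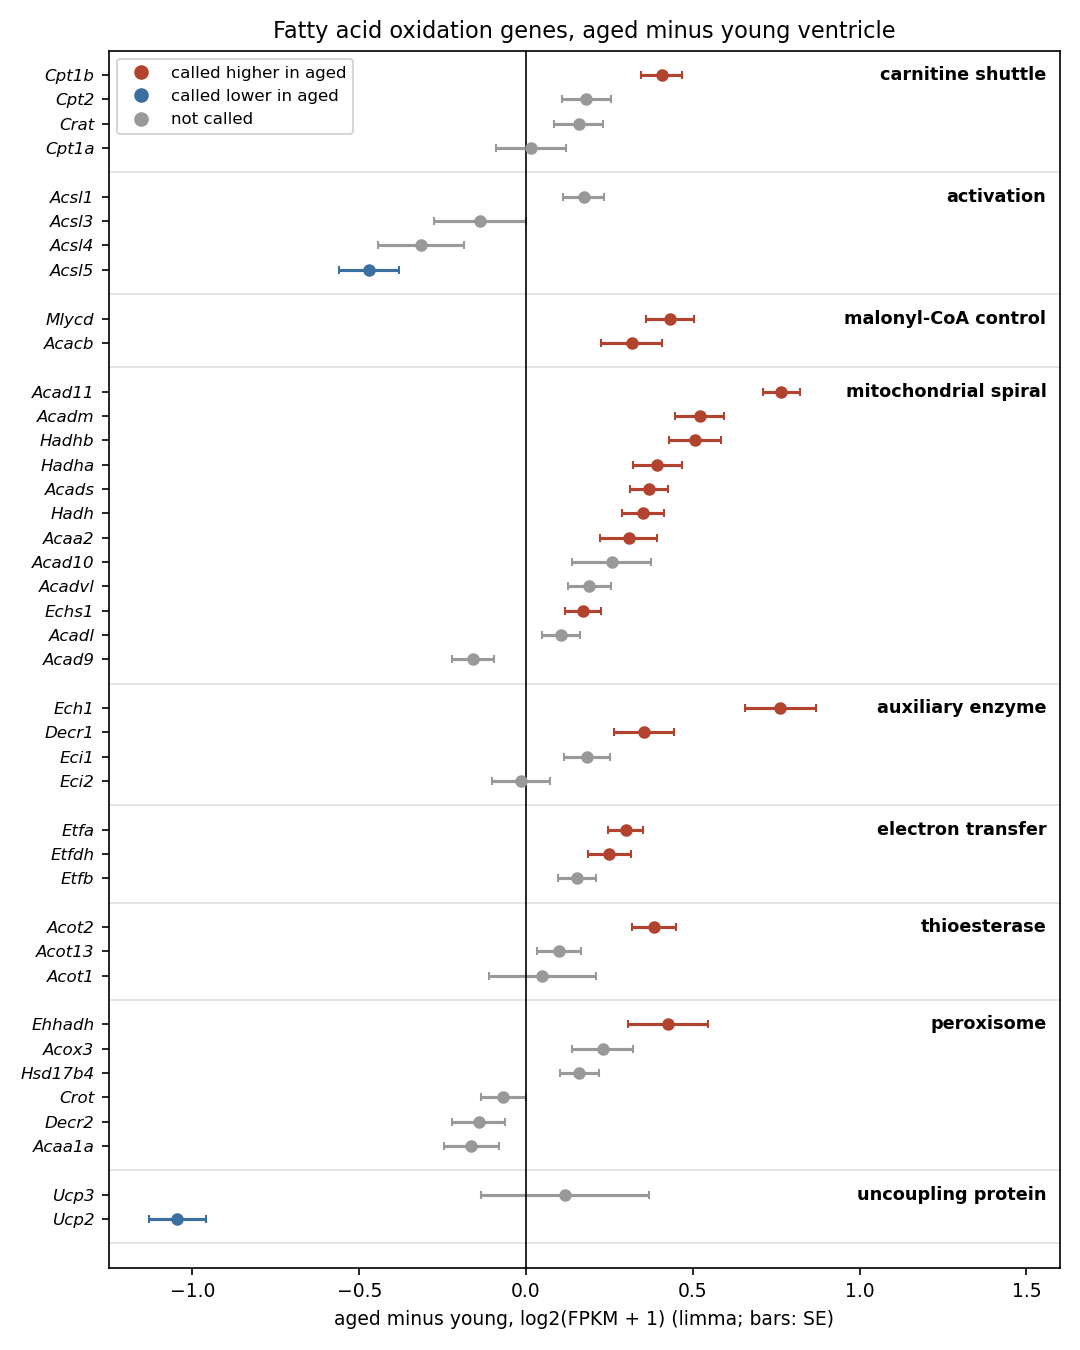
Differences in log2(FPKM + 1), aged minus young, for the 40 tested genes, grouped by role; points are limma estimates from 3 aged and 3 young libraries and bars are 1 standard error. The 17 genes called higher are red, the 2 called lower, Acsl5 and Ucp2, are blue, and grey genes did not pass the threshold.

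Most of the higher calls were of abundant genes. Where the mean level reached 100 FPKM, 12 of 21 genes were higher and 0 lower, where 22.4% of all tested genes at that level were higher and 12% lower. The aged libraries all lay above the young ones in 18 of the 21 and overlapped them in 3, where 33.6% of all tested genes at that level lay above and 51.1% did not overlap in either direction. Below 100 FPKM, 5 of 19 were higher and 2 lower, where 8.47% of all tested genes at that level were higher and 17.4% lower. The median log2 difference was 0.25 in the abundant set and 0.05 in the other. Summed over the 42 genes, the level was 11287, 10393 and 9637 FPKM in aged libraries, against 8296, 8079 and 8327 FPKM in young libraries, 1.27-fold higher in aged.

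Some cardiomyocyte transcripts were also higher. Of all tested genes 9.32% were higher and 17.1% lower (22.4% and 12% among those that reach 100 FPKM). The counts for each list in this paragraph are to be read against those shares. The cardiomyocyte list had 5 of 15 genes higher and 0 lower (Myl2, Tnnt2, Tnni3, Mb and Myh7), while 10 were not called, and the log2 difference was positive in 9 and negative in 6. Its summed level was 1.17-fold higher in aged, and 1.11-fold higher without Myl2, the most abundant of the list. As a percentage of the sum with Myl2, the 42 oxidation genes stood at 13.8, 13.6 and 12.4 in aged libraries, against 11.9, 12.03 and 12.7 in young libraries, so the ages overlapped at aged replicate 3 and young replicate 3. That overlap depends on Myl2. It is absent when the sum leaves Myl2 out, though aged replicate 3 and young replicate 3 still lie close together. Without Myl2 the cardiomyocyte sum was 63188, 60212 and 61536 FPKM in aged libraries, against 57573, 55257 and 54195 FPKM in young libraries. Against 84 nuclear subunits of oxidative phosphorylation, a list added after the data had been seen, the sum of the 42 oxidation genes stood at 14.1, 14.6 and 13.4% in aged libraries and 12.03, 11.4 and 12.4% in young libraries, with no overlap. Those subunits had 10 genes higher and 4 lower with a median log2 difference of 0.08, and 13 citric acid cycle genes, also added, had 3 higher and 1 lower with a median of -0.02. Endothelial markers (7 of 12 lower, summed 517 to 545 FPKM in aged and 603 to 721 in young) and mural markers (7 of 11 lower, 393 to 431 and 942 to 1032) moved the other way. Of fibroblast markers, 8 of 12 were lower and 1 higher (summed 1181 to 1306 FPKM in aged and 1282 to 1379 in young). Most of the fibroblast sum was Gsn (means of 587 FPKM in aged and 508 in young) and Dcn (386 and 355), which were not called. Acta2, the smooth muscle actin, made up most of the mural gap, and without it the mural sum was 338 to 358 FPKM in aged and 395 to 472 in young, 1.25-fold lower in aged. Erythroid genes, lower in 6 of 6 tested, summed to 9518 to 10922 FPKM in aged and 15370 to 23593 in young. Fast skeletal muscle genes summed to 243 to 655 FPKM in aged and 432 to 819 in young, nearly all of it Acta1, and 1 of 4 tested was lower. That one was Casq1, the skeletal calsequestrin, at 1.93, 2.02 and 1.78 FPKM in aged libraries, against 34.2, 36.6 and 29.1 FPKM in young libraries (log2 -3.55, limma adjusted p = 2.13e-07). Hepatocyte genes, at 3.90 to 4.66 FPKM in aged and 3.40 to 7.28 in young, had none of 2 tested called. The part of these shifts in cell markers in the result was not tested.

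**Figure D2:**
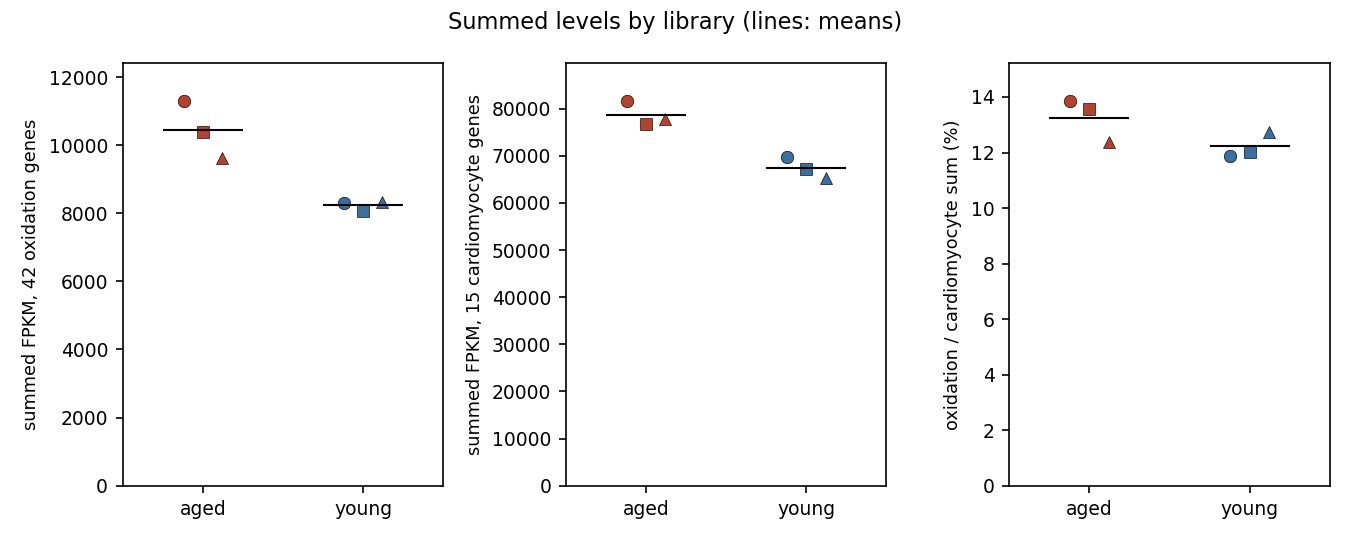
Summed FPKM of the 42 oxidation genes (left), of 15 cardiomyocyte genes (middle) and the first as a percentage of the second (right), for aged and young libraries; circles, squares and triangles are replicates 1, 2 and 3 and lines are means. Both sums are higher in all 3 aged libraries, while the percentages overlap, with aged replicate 3 at 12.4% and young replicate 3 at 12.7%. The cardiomyocyte sum includes Myl2, on which that overlap depends.

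The size of the rise differed among the aged libraries. Aged replicate 1 was the highest aged library in 14 of the 17 genes called higher, and aged replicate 3 the lowest in 12 of 17; over all 1105 genes called higher these shares were 33.2% and 35.9%. Relative to the young mean, the median shift of the 40 genes was 0.27, 0.17 and 0.13 on the log2 scale in aged replicates 1, 2 and 3. With that library as the sole aged sample, which is assumed to vary like the others, 2 of the 40 genes were called higher (Acad11 and Ech1) and 1 lower (Ucp2), among 247 genes higher and 216 lower in all. In that fit 29 of the 40 genes had a positive log2 difference, with a median of 0.13, against 31 of 40 and 0.18 with all aged libraries. The part of the epithelial transcripts of aged replicates 1 and 2 in the result was not tested.

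**Figure D3:**
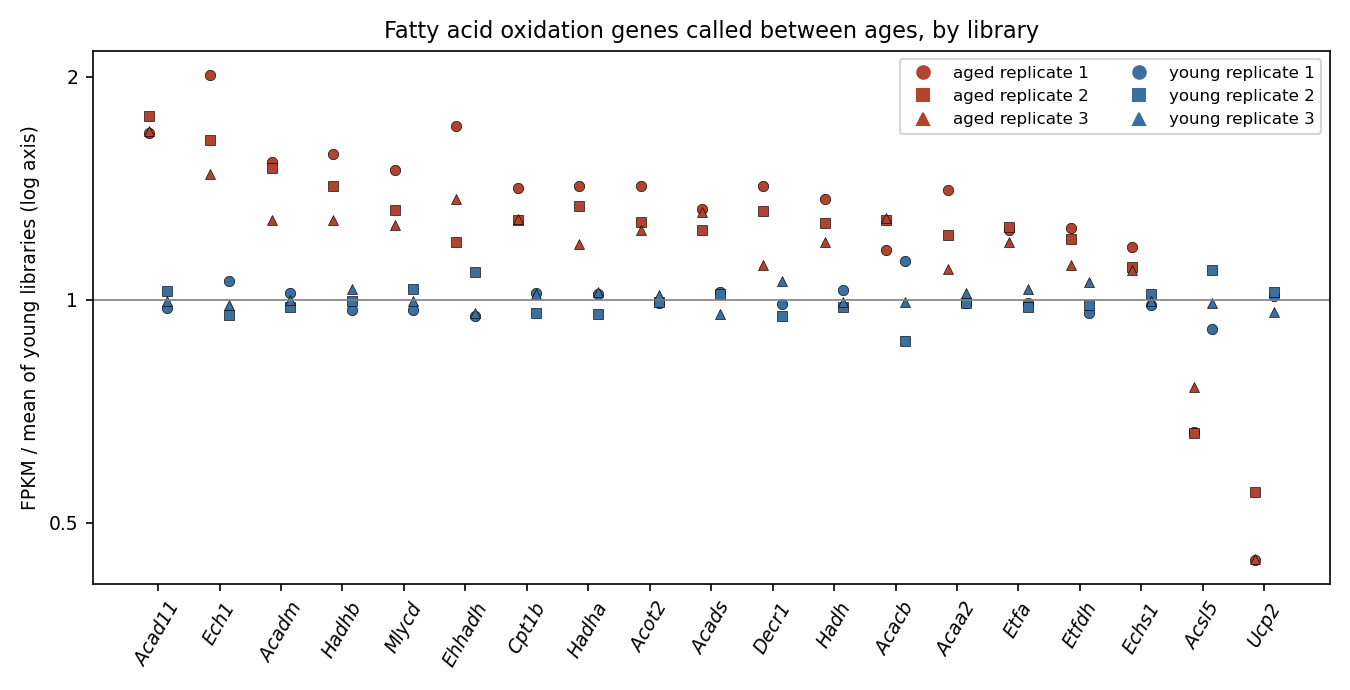
FPKM of each gene called between ages, divided by the mean of the 3 young libraries, on a log axis; red symbols are aged and blue symbols young libraries, with circles, squares and triangles for replicates 1, 2 and 3. In all 19 genes the ages are separated, and aged replicate 1 is the highest aged library for 14 of the 17 higher genes.

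In the carnitine shuttle the muscle form of CPT1 was higher and the liver form was not called. Cpt1b, the form that muscle uses (chromosome 15, 89416405 to 89425862), was at 345, 312 and 313 FPKM in aged libraries, against 249, 234 and 248 FPKM in young libraries. Every aged value lay well above every young one, a 1.33-fold rise (log2 0.41, SE 0.0607, adjusted p = 0.00203). Of its transcript, 91.1% of 100-base runs are shared with Gm44502, an annotated locus that overlaps it, so reads of this pair cannot be told apart there. Cpt1a, the liver form, was at 13.5, 13.2 and 12.2 FPKM in aged libraries and 10.7, 14.1 and 13.9 FPKM in young libraries, and the ages overlapped (log2 0.02, SE 0.104, adjusted p = 0.934). The ratio of Cpt1a to Cpt1b was 0.0392, 0.0421 and 0.0390 in aged libraries, against 0.0432, 0.0602 and 0.0560 in young libraries, without overlap. Cpt2, the inner membrane enzyme, had 138 ± 8.75 FPKM in aged and 122 ± 9.39 in young (SD, n = 3 each), and Crat, which makes acetylcarnitine, 240.5 ± 14.7 and 216 ± 16.7; neither passed (limma adjusted p = 0.105 and 0.145).

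Among the long-chain acyl-CoA synthetases, the one that fell in aged ventricle was Acsl5, a form found on mitochondria and endoplasmic reticulum (chromosome 19, 55251861 to 55296628). Acsl5 was at 7.37, 7.35 and 8.47 FPKM in aged libraries, against 10.2, 12.2 and 11.0 FPKM in young libraries. The ages did not overlap, and the gene was 1.44-fold lower in aged (log2 -0.47, SE 0.0900, adjusted p = 0.00601), a call lost when aged replicate 3 stood alone for its age (log2 -0.35, adjusted p = 0.17). Acsl1, the main cardiac form and by far the most abundant of the 4, was at 379, 381 and 344 FPKM in aged libraries and 326, 313 and 339 FPKM in young libraries. Its aged values all lay above the young ones, yet it did not pass (log2 0.17, SE 0.0624, adjusted p = 0.0712; 0.0378 when aged replicate 3 is left out, 0.0242 after median-of-ratios scaling). Acsl4, which prefers arachidonate, was at 3.11 ± 0.675 FPKM in aged and 4.08 ± 0.407 in young (adjusted p = 0.106, 0.0297 without aged replicate 2), and Acsl3 at 2.28 ± 0.459 and 2.60 ± 0.405 (SD, n = 3 each; limma adjusted p = 0.502).

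Of the enzymes that set malonyl-CoA, the inhibitor of CPT1, both among the 43 genes were higher. Acaca, a carboxylase outside the 43, had 2.35 ± 0.225 FPKM in aged and 1.97 ± 0.112 in young (SD, n = 3 each) and was not called (limma adjusted p = 0.274). Mlycd, the decarboxylase that removes malonyl-CoA (chromosome 8, 119394852 to 119421838), was at 76.5, 67.5 and 64.6 FPKM in aged libraries, against 49.6, 53.0 and 50.9 FPKM in young libraries. The lowest aged value stood clear of the highest young value, and the rise was 1.36-fold (log2 0.43, SE 0.0728, adjusted p = 0.0036). Acacb, the mitochondrial acetyl-CoA carboxylase that makes malonyl-CoA, was at 53.6, 58.9 and 59.3 FPKM in aged libraries, against 51.8, 40.5 and 45.6 FPKM in young libraries. The ages came close at aged replicate 1 and young replicate 1, and the call (log2 0.32, SE 0.0904, adjusted p = 0.0315) was lost without aged replicate 2 (adjusted p = 0.0861), aged replicate 3 (0.0771), young replicate 2 (0.0951) or young replicate 3 (0.0926), on TPM (0.0645), with a replicate block (0.053), unfiltered (0.0605) and when no mean trend was fitted (0.0576). The ratio of Mlycd to Acacb overlapped between ages, at 1.43, 1.15 and 1.09 in aged libraries and 0.958, 1.31 and 1.12 in young libraries (exact permutation p = 0.6, two-sided).

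In the spiral, the dehydrogenases for medium and short chains rose and those for long chains did not pass. Acadm, the medium-chain dehydrogenase (chromosome 3, 153922353 to 153944643), was at 740.1, 726 and 618 FPKM in aged libraries, against 493, 473 and 483 FPKM in young libraries, a 1.44-fold rise with wide separation (log2 0.52, SE 0.0745, adjusted p = 0.0017). Acads, the short-chain dehydrogenase, was at 123, 115 and 122 FPKM in aged libraries and 95.0, 94.6 and 88.6 FPKM in young libraries, again without overlap (log2 0.37, SE 0.0574, adjusted p = 0.00253). Acadvl, for very long chains, was at 578, 539 and 503 FPKM in aged libraries, against 473, 461 and 484 FPKM in young libraries. Acadvl was separated between ages but just missed the threshold (log2 0.19, SE 0.0636, adjusted p = 0.0561; 0.0299 when aged replicate 3 is left out, 0.021 after median-of-ratios scaling). Acadl, for long chains, had 527 ± 19.4 FPKM in aged and 489 ± 18.4 in young (SD, n = 3 each; log2 0.11, limma adjusted p = 0.203). A missed threshold does not show that the long-chain genes differ from the others, and the ratio of Acads to Acadvl was 0.213, 0.214 and 0.243 in aged libraries, against 0.201, 0.205 and 0.183 in young libraries, without overlap.

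Acad11 had the smallest adjusted p of all 40 genes. Acad11, a dehydrogenase family member that also carries a kinase-like domain (chromosome 9, 104063724 to 104127656), was at 87.6, 92.6 and 88.2 FPKM in aged libraries, against 50.9, 53.7 and 52.1 FPKM in young libraries. Both ages were tight and far apart, a 1.71-fold rise (log2 0.76, SE 0.0555, adjusted p = 5.44e-05) that was called under each of the 18 other settings tried. Only 2.0% of its 100-base runs are shared with another gene. Its relative Acad10 was at 2.65 ± 0.372 FPKM in aged and 2.05 ± 0.232 in young (adjusted p = 0.146), and Acad9, which also assembles respiratory complex I, at 13.0 ± 0.123 and 14.6 ± 0.540 (SD, n = 3 each; log2 -0.16, limma adjusted p = 0.1).

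The later steps of the spiral were also higher. Hadhb, the thiolase subunit of the trifunctional protein (chromosome 5, 30155253 to 30184593), was at 1182, 1071 and 965 FPKM in aged libraries, against 729, 749.5 and 779 FPKM in young libraries (log2 0.51, SE 0.0775, adjusted p = 0.00233). Hadha, the subunit with hydratase and dehydrogenase activity (chromosome 5, 30119423 to 30154980), was at 860.4, 809.8 and 719 FPKM in aged libraries, against 615, 578 and 619.9 FPKM in young libraries (log2 0.39, SE 0.0739, adjusted p = 0.00564). Both subunits were separated between ages, with aged replicate 3 nearest to the young libraries. The ratio of Hadha to Hadhb was 0.728, 0.756 and 0.745 in aged libraries, against 0.844, 0.772 and 0.796 in young libraries, lower in every aged library (log2 -0.11, exact permutation p = 0.1, two-sided, the smallest that 3 against 3 allow). Of the Hadhb transcript, 52.8% of 100-base runs are shared with the processed pseudogene Gm13910 on chromosome 2, while Hadha shares none.

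For shorter chains, Hadh, the short-chain hydroxyacyl-CoA dehydrogenase, was at 484, 449 and 424 FPKM in aged libraries, against 365, 346 and 352 FPKM in young libraries, a clear separation (log2 0.35, SE 0.0629, adjusted p = 0.00466). Acaa2, the mitochondrial thiolase, was at 629, 547 and 492 FPKM in aged libraries, against 442, 442 and 456 FPKM in young libraries (log2 0.31, SE 0.0849, adjusted p = 0.0279). Its aged values were spread, and the call was lost whenever 1 library other than aged replicate 3 was dropped (adjusted p = 0.0554 without aged replicate 1, 0.0624 without aged replicate 2, and 0.0661, 0.0792 and 0.0727 without young replicates 1, 2 and 3). Acaa2 also lost its call with quantile normalization (0.0883), after removal of length and GC trends (0.0581), without a mean trend (0.0562) and with no filter on low values (0.0633). Echs1, the short-chain hydratase, was at 246, 231 and 229 FPKM in aged libraries, against 205, 213 and 208 FPKM in young libraries, a small and separated difference (log2 0.17, SE 0.0540, adjusted p = 0.0449). Echs1 was not called once any 1 library was dropped (adjusted p = 0.12, 0.0714 and 0.0583 without aged replicates 1, 2 and 3, and 0.0988, 0.0869 and 0.135 without young replicates 1, 2 and 3), with a replicate block (0.107), on TPM (0.0926), without a mean trend (0.099) or after removal of length and GC trends (0.11).

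Ech1 was the most abundant of the 42 genes and had the highest level in every library. Ech1, the dienoyl-CoA isomerase that serves chains with double bonds at odd positions (chromosome 7, 28825338 to 28832239), was at 1777, 1451 and 1307 FPKM in aged libraries, against 939, 844 and 869 FPKM in young libraries. The lowest aged value was far above the highest young value, though the aged libraries spread widely, and the rise was 1.71-fold (log2 0.76, SE 0.105, adjusted p = 0.0014) and was called under each of the 18 other settings. Decr1, the mitochondrial dienoyl-CoA reductase, was at 190.1, 176 and 149 FPKM in aged libraries, against 132, 127 and 142 FPKM in young libraries (log2 0.35, SE 0.0905, adjusted p = 0.0204). Aged replicate 3 came close to young replicate 3, and the call was lost without aged replicate 1 (adjusted p = 0.0641), aged replicate 2 (0.0629) or young replicate 2 (0.0714). Eci1, an enoyl-CoA isomerase, had 244 ± 20 FPKM in aged and 214 ± 5.66 in young (log2 0.18, adjusted p = 0.0799, 0.0291 without aged replicate 3), while Eci2 had 106 ± 14.1 and 107 ± 2.21 (SD, n = 3 each; limma adjusted p = 0.923). The ratio of Eci2 to Eci1 was 0.465, 0.418 and 0.427 in aged libraries, against 0.493, 0.508 and 0.499 in young libraries.

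Of the genes that carry electrons away from the dehydrogenases, 2 of 3 rose. Etfa, the alpha subunit of the electron transfer flavoprotein, was at 436, 441 and 421 FPKM in aged libraries, against 348, 343 and 363 FPKM in young libraries (log2 0.30, SE 0.0529, adjusted p = 0.00439), with little spread within an age. Etfdh, which passes the electrons to ubiquinone, was at 339, 328 and 302 FPKM in aged libraries, against 260.3, 267 and 287 FPKM in young libraries (log2 0.25, SE 0.0648, adjusted p = 0.0217). For Etfdh the call was lost without aged replicate 1 (adjusted p = 0.067), aged replicate 2 (0.0613), young replicate 1 (0.0609) or young replicate 2 (0.0718), with a replicate block (0.0565) and without a mean trend (0.0517). Etfb, the beta subunit, was at 618 ± 31.2 FPKM in aged and 555 ± 9.99 in young (SD, n = 3 each). Its aged values all lay above the young ones, yet it did not pass (log2 0.15, limma adjusted p = 0.0785). It was called after median-of-ratios scaling (adjusted p = 0.0245) and with library weights (0.045), but was at log2 -0.0031 after removal of length and GC trends. Of its 100-base runs, 65.2% are shared with the overlapping locus Gm45233. The ratio of Etfa to Etfb was 0.674, 0.7099 and 0.719 in aged libraries, against 0.631, 0.607 and 0.664 in young libraries.

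Of the thioesterases, which split acyl-CoA into free fatty acid and coenzyme A, Acot2, a mitochondrial one, rose. Acot1 and the most abundant, Acot13, were not called. Acot2 (chromosome 12, 83987861 to 83993877) was at 61.3, 54.9 and 53.5 FPKM in aged libraries, against 42.6, 42.8 and 43.7 FPKM in young libraries, with the young libraries nearly equal (log2 0.38, SE 0.0660, adjusted p = 0.00394). Its cytosolic neighbour Acot1, 15624 bases downstream on the same strand, was at 18.2, 12.1 and 11.4 FPKM in aged libraries and 13.3, 11.5 and 14.7 FPKM in young libraries. Aged replicate 1 was the highest of the 6 for Acot1 and the ages overlapped (log2 0.05, adjusted p = 0.853). Acot1 and Acot2 share 16.5% and 17.1% of their 100-base runs with each other, so some reads cannot be told apart. Acot13, a small thioesterase of another fold, had 454 ± 31.3 FPKM in aged and 424 ± 16.2 in young (SD, n = 3 each; limma adjusted p = 0.309).

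Peroxisomal genes were less abundant and mostly not called. Ehhadh, the L-bifunctional enzyme, was at 8.30, 5.79 and 6.61 FPKM in aged libraries, against 4.6, 5.27 and 4.64 FPKM in young libraries. The gap between aged replicate 2 and young replicate 2 was small, and the call (log2 0.43, SE 0.120, adjusted p = 0.0303) was lost without aged replicate 1 (0.0861), aged replicate 3 (0.0519), young replicate 1 (0.0744) or young replicate 3 (0.0981) and with no filter on low values (0.0692). Hsd17b4, the D-bifunctional enzyme, had 46.4 ± 0.498 FPKM in aged and 41.5 ± 1.80 in young (adjusted p = 0.0725, 0.0251 with median-of-ratios scaling), and the acyl-CoA oxidase Acox3 13.1 ± 1.15 and 11.0 ± 1.09 (SD, n = 3 each; limma adjusted p = 0.0993, 0.0467 without young replicate 1). Acaa1a, the peroxisomal thiolase, was at 35.2, 32.1 and 37.5 FPKM in aged libraries and 42.9, 38.5 and 36.5 FPKM in young libraries, with overlap (log2 -0.16, adjusted p = 0.173). Decr2, the peroxisomal dienoyl-CoA reductase, had 8.62 ± 0.274 and 9.64 ± 0.756 FPKM, and Crot, which moves shortened chains to carnitine, 12.4 ± 0.387 and 13.1 ± 0.596, in aged and young (SD, n = 3 each; limma adjusted p = 0.217 and 0.498). Summed over the 7 peroxisomal genes the level was 124, 118 and 125 FPKM in aged libraries, against 123, 118 and 117 FPKM in young libraries, while the 12 genes of the mitochondrial spiral summed to 5479, 5139 and 4680.1 FPKM in aged libraries and 3982, 3897 and 4041 FPKM in young libraries. Acad11, at a mean of 89.45 FPKM in aged and 52.23 in young libraries, is counted with the spiral here. How little the peroxisomal sum differed between ages depends on that placement.

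Ucp2 had the largest difference of the set, and it was a fall. Ucp2, a carrier of the inner mitochondrial membrane that many cell types express (chromosome 7, 100493337 to 100499629), was at 40.6, 50.2 and 40.8 FPKM in aged libraries, against 92.2, 93.3 and 87.8 FPKM in young libraries. Every aged value lay far below every young one, 2.08-fold lower in aged (log2 -1.04, SE 0.0854, adjusted p = 9.44e-05), and Ucp2 was called lower under each of the 18 other settings. Ucp3, the form of muscle and heart, lies 6904 bases away on the same strand and was at 21.4, 18.4 and 18.6 FPKM in aged libraries, against 10.7, 26.0 and 20.2 FPKM in young libraries. Young replicate 1 was the lowest of the 6 for Ucp3 and the ages overlapped (log2 0.12, SE 0.253, adjusted p = 0.77; log2 -0.23 and adjusted p = 0.192 without young replicate 1). Ucp2 is also abundant in macrophages and leukocytes. Summed markers of these cells were at 218, 298 and 259.8 FPKM in aged libraries, against 258, 267 and 248 FPKM in young libraries. Most of that sum was Lyz2 (161, 225 and 196 FPKM in aged libraries, 183, 189 and 168 in young libraries), which was not called. The sum therefore says little of the other markers. Of 10 tested markers 2, Csf1r and Mrc1, were lower and 0 higher, where 17.1% of all tested genes were lower and 9.32% higher. The part of these cells and that of the lower endothelial markers in the fall of Ucp2 were not tested.

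Ratios within a library do not depend on how libraries are scaled. Of 15 pairs of isoenzymes or subunits compared, the ages did not overlap in 11, with the ratio lower in aged in 9 and higher in 2. Several pairs share Acsl1 or Acadvl, so the pairs are not independent. Among levels of single genes 43% of all tested genes did not overlap, but no such share was worked out for ratios. With 3 against 3 the smallest exact permutation p is 0.1, which all 11 reached, and adjusted over the 15 pairs it was 0.136, so none passes. Among the non-overlapping pairs were the reductases and thiolases of peroxisome over mitochondrion. The ratio of Decr2 to Decr1 was 0.0437, 0.0496 and 0.0593 in aged libraries, against 0.0667, 0.0809 and 0.0694 in young libraries. That of Acaa1a to Acaa2 was 0.05596, 0.0587 and 0.0763 in aged libraries, against 0.09699, 0.0869 and 0.08004 in young libraries. For Acsl5 over Acsl1 it was 0.0194, 0.0193 and 0.0246 in aged libraries, against 0.0311, 0.0389 and 0.0325 in young libraries, again lower in every aged library. The ratio of Ucp2 to Ucp3 was 1.90, 2.73 and 2.196 in aged libraries, against 8.65, 3.59 and 4.35 in young libraries, with young replicate 1 apart from the rest.

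**Figure D4:**
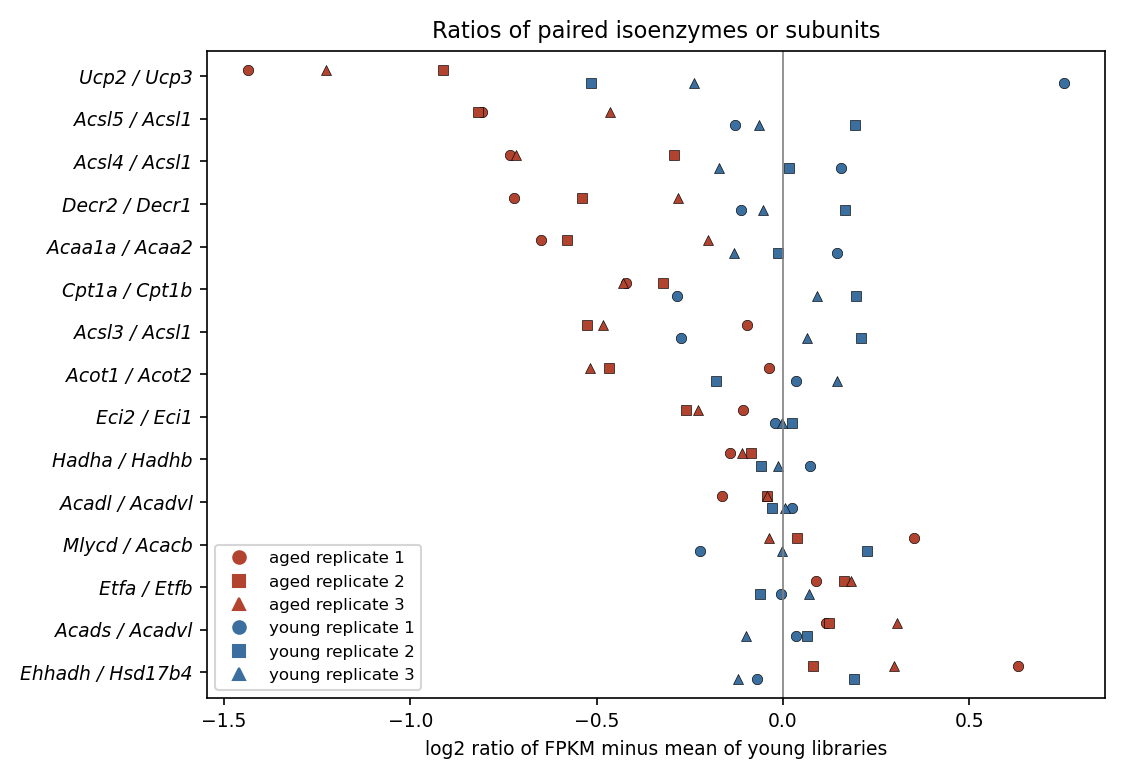
Log2 ratio of FPKM of 15 gene pairs, minus the mean of the 3 young libraries; red symbols are aged and blue symbols young libraries, with circles, squares and triangles for replicates 1, 2 and 3. The aged libraries lie wholly below the young ones in 9 pairs, wholly above in 2 and overlap them in 4.

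Other genes of the pathway were counted from lists by function, to be read against the 9.32% of all tested genes that were higher and the 17.1% that were lower (22.4% and 12% among those that reach 100 FPKM). Of 12 tested genes of fatty acid uptake and carnitine transport, 7 were higher and 2, Slc27a4 and Fabp4, lower. The synthetase Acsl6 was at 8.61, 9.87 and 8.53 FPKM in aged libraries, against 2.68, 2.25 and 2.45 FPKM in young libraries, without overlap (log2 1.53, SE 0.0933, adjusted p = 2.4e-05). The lipase Lpl had 1531 ± 20.3 FPKM in aged and 1155 ± 38.3 in young, the transport protein Slc27a1 62.4 ± 9.29 and 38.4 ± 1.46, and the fatty acid receptor Cd36 705 ± 59.4 and 531 ± 36.7 (SD, n = 3 each; limma adjusted p = 0.00118, 0.00177 and 0.00657). Of 19 tested genes listed with the handling of other acyl-CoA esters, 11 were higher and 1, the carrier Slc25a45, lower. Not all of them are enzymes of these esters, and those higher include the carrier Slc25a42 and Etfrf1. Acad12 (27.2 ± 0.650 FPKM in aged, 15.5 ± 0.428 in young), Ivd of leucine breakdown (129 ± 2.47 and 90.5 ± 1.30), Gcdh of lysine breakdown (34.8 ± 0.540 and 24.7 ± 0.0586) and the thiolase Acat1 (220.2 ± 10.4 and 160.6 ± 3.10) had the largest statistics (SD, n = 3 each).

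Of 17 other peroxisomal genes 4 were higher and 0 lower, where 9.32% of all tested genes were higher and 17.1% lower. Among them the peroxisome division factor Pex11a had 12.3 ± 1.12 FPKM in aged and 7.21 ± 0.522 in young, the catalase gene Cat 143 ± 7.60 and 109.97 ± 3.12, and the lipid carrier Scp2 147 ± 4.79 and 121 ± 6.00 (SD, n = 3 each; limma adjusted p = 0.00102, 0.00288 and 0.00854). Of 7 other thioesterases, Acot11 was higher and Acot9 lower. Among 24 genes that control the pathway, 8 were higher and 0 lower, among them the nuclear receptors Esrrg (11.7 ± 0.560 FPKM in aged, 8.17 ± 0.115 in young) and Esrrb (12.4 ± 0.368 and 8.30 ± 0.799), the muscle regulator Perm1 (144 ± 4.78 and 103 ± 11.0) and the AMPK subunit Prkab2 (17.9 ± 0.989 and 13.5 ± 0.170; SD, n = 3 each). Ppara, the receptor most tied to these genes, had 16.7 ± 1.51 FPKM in aged and 15.3 ± 1.98 in young (SD, n = 3 each, limma adjusted p = 0.428). Its relative Pparg was among the 8 higher, with 8.25 ± 0.615 FPKM in aged and 5.69 ± 0.656 in young (limma adjusted p = 0.00854). Ppard was not called (limma adjusted p = 0.154). These receptors were named after their values were seen. Of 18 known PPAR targets outside the 43 genes, 11 were higher, among them Pex11a, Lpl and Slc27a1, and 1 was lower. That one was Pdk4, a kinase that restrains pyruvate oxidation, at 91.8, 100.05 and 80.7 FPKM in aged libraries, against 105, 131 and 166 FPKM in young libraries (log2 -0.54, SE 0.149, adjusted p = 0.0279). Some of these genes stand in more than one list.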

How the data were processed

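Per the labels, mRNA from 6 heart ventricle samples was selected on oligo(dT) beads and read from both ends (100 bases). The authors deposited 1 table of FPKM to 2 decimals, per the file headers; it holds no column of another sample. The submitters' processing notes name the build mm10, the aligners Bowtie2 (2.2.5) and HISAT2 (2.0.4), the quantifier RSEM (1.2.12) and DESeq2 (1.4.5), with no role for each. The annotation was not given in the sources used here. FPKM are not counts, so limma 3.58.1 in R 4.3.3 was fitted to log2(FPKM + 1) of the 11860 genes averaging 1 FPKM or more (eBayes with a mean trend, two-sided, Benjamini-Hochberg adjustment over all of them, threshold 0.05) and was tested on simulated data. Log2 differences are on that scale, which understates changes of low genes; folds divide the mean FPKM of the ages. Ratios were tested by exact permutation, whose smallest p is 0.1 here.

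Members and lists were chosen with earlier results of these data known. All 43 members are accounted for, with values in every library for those called and for the most abundant and most and least changed of each role; of each pathway list up to 4 called genes with the largest statistic are named, except 1 that is not reported here. Gene positions and promoters came from RefSeq (GRCm38.p6), transcript lengths and shared 100-base runs from GENCODE vM21 (lengths for 99.18% of tested genes). Alternatives were pseudocount 0.1, no filter or a 5 FPKM minimum, quantile and median-of-ratios scaling, TPM, no mean trend, robust empirical Bayes, library weights, a replicate block, removal of length and GC trends (splines with 4 degrees of freedom) and leaving out libraries. Figures used matplotlib 3.10.9 with pandas 2.3.3 in Python 3.11.15.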

Additional observations from a re-analysis of the deposited data

How the results depend on the processing

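Ech1 and Acad11 kept their higher call and Ucp2 its lower call under all 18 alternatives, and 9 other genes called higher lost theirs only where aged replicate 3 stood alone for its age. That fit gave 2 genes of the set higher and 1 lower, a median log2 difference of 0.13 over the 40 genes, and 247 genes higher and 216 lower over all; it holds 1 aged sample. Leaving out 1 library gave 12 to 17 genes of the set higher and 2 to 3 lower (17 and 2 with all), a median of 0.14 to 0.22, and 711 to 1020 genes higher and 1171 to 1974 lower over all (1105 and 2026 with all). The lowest counts over all came without young replicate 3. Median-of-ratios scaling moved the median of the 40 genes to 0.25, with 22 of the set higher, against 15 on TPM and 17 with quantile normalization; the cause was not tested. Both ages carry replicate numbers 1 to 3. Deviations of same-numbered libraries correlated at 0.0413, -0.0795 and 0.0378, so no pairing by number was seen. With so few libraries these values cannot exclude a weak pairing. With a replicate block 14 of the set were higher and 2 lower. Signs turned only for genes that were not called. Leaving out 1 library gave log2 differences of -0.10 to 0.078 for Cpt1a, -0.12 to 0.061 for Eci2, -0.15 to 0.17 for Acot1 and -0.23 to 0.38 for Ucp3. Cpt1a was also at -0.025 on TPM, -0.031 with library weights and -0.063 with aged replicate 3 alone, where Acot1 was at -0.19. Eci2 was at 0.052 with median-of-ratios scaling and 0.025 with library weights, and Crot at 0.013 with quantile normalization. After removal of length and GC trends Etfb was at -0.0031 and Acot13 at -0.13. Depth limits the least abundant genes, Acsl3, Acad10 and Acsl4, most.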
